A study of Mus musculus with 6 samples.

Results

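The genes described here are 10 endothelial genes tied to vessel growth and to the capillary surface: Apln, Aplnr, Esm1, Plvap, Cd34, Emcn, Egfl7, Robo4, Ramp2 and Eng. They were taken by name from a deposited table of 24318 rows, and all 10 were found. RNA came from whole livers of mice on a C57BL/6 background, with 3 libraries in each of 2 groups. The mice of both groups carried loxP-flanked alleles of Map3k7, the gene of the kinase TAK1, and VEcadCreERT2, a Cre recombinase that tamoxifen switches on and that is driven by the promoter of the endothelial cadherin gene. Knockout livers came from mice given tamoxifen, and control livers from mice of the same genotype given no treatment, so tamoxifen itself and loss of TAK1 cannot be told apart. Age and the time after tamoxifen are not given in the sources used here.

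Sprouting vessels are led by tip cells, which make secreted products such as apelin (Apln) and endocan (Esm1) and answer to VEGF. Vessels behind the tip carry a surface coat of sialomucins (Cd34, Emcn) and, where they are fenestrated, diaphragms built from PLVAP. Quiescence and barrier function are served by the guidance receptor ROBO4, by the adrenomedullin co-receptor RAMP2 and by endoglin (Eng), a co-receptor of BMP9. The liver sinusoid is an unusual bed, since its healthy fenestrae lack diaphragms and its endothelium has little CD34.

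Of the 10 genes, Apln and Plvap rose in knockout livers, and Egfl7, Robo4 and Ramp2 fell. Apln went from at most 0.130 to about 4.5 FPKM (sequenced fragments scaled to transcript length and to library size), and mean Plvap went from 41.8 to 69.9 FPKM. Mean levels of Egfl7, Robo4 and Ramp2 in knockout livers were 41.4%, 31.7% and 57.6% of those in controls. For Esm1, Cd34, Emcn and Eng the difference did not pass the test, and Aplnr was listed at or near 0 in every library. Change was tested by limma on log2(FPKM + 0.5) for the 11842 genes whose mean reached 0.5 FPKM, as it did for 9 of the 10, Aplnr being the exception. Apln reached that mean through the knockout group alone, so as a tested gene it had to differ. Calls were made where the p, adjusted over all 11842 genes by Benjamini-Hochberg, was under 0.05. That made 5 of the 9 called, where 27.0% of all tested genes were: 2 higher, where 14.1% were called higher, and 3 lower, where 13% were called lower. Log2 fold changes are of knockout against control and are given with their standard error. The added 0.5 makes the change of a low gene look smaller than it was. Whole liver RNA does not separate fewer endothelial cells from less RNA per cell.

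The starts of the gene that rose most and of the gene that fell most among the called ones are shown for context, from RefSeq on GRCm38, with 250 bases before the start and 50 after it. Capitals mark GGAA on either strand, the core of the sites of ETS factors, which many endothelial genes use. The Apln window is chrX:48034804-48035103 on the minus strand, and the Robo4 window is chr9:37401722-37402021 on the plus strand.

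Apln: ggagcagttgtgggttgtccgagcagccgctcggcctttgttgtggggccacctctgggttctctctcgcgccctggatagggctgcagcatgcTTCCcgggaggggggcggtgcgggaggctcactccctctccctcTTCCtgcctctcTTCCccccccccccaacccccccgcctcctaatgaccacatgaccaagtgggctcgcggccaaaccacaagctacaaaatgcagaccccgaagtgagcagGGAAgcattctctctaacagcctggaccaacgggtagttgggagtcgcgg

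Robo4: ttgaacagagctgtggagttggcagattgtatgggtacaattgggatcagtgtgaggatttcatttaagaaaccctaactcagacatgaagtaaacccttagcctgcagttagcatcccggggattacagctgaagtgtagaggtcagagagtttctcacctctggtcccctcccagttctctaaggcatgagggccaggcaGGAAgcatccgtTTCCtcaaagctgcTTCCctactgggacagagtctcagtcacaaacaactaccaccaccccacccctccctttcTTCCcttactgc

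Each window holds 4 copies of GGAA. This sets neither apart, because 96.0% of 32851 windows of the same length hold that core. Windows were found for 7 of the 10 genes, 9 windows in all since Egfl7 has 3 starts. The longer ETS form CCGGAA was in none of the 9 and in 14.9% of all windows. Also in none of the 9, on either strand, were the AP-1 motif TGANTCA (7.81% of all windows) and the longer NF-kB motif (1.63%). The same held for the GATA (11.2%), SOX (12.6%), FOX (3.65%) and HIF (19.6%) motifs. With 9 windows, and none for Aplnr, Plvap and Ramp2, these absences set no motif apart. The KLF motif CCACCC was in 4 of the 9 and in 31.5% of all windows.

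Apln encodes apelin, a secreted peptide ligand of endothelial cells. It lies on chromosome X (48025146 to 48034853, minus strand, ENSMUSG00000037010, GRCm38). The control libraries listed 0, 0 and 0.130 FPKM, and the knockout libraries 4.46, 4.53 and 4.60 FPKM. No value overlapped between the groups, and the 3 knockout values lay within 1.03-fold of each other. Since Apln passed the filter on low values through the knockouts alone, its test adds little to these values. Its log2 fold change was 3.22 ± 0.25 (limma adjusted p = 7.52e-05), a size that rests on the pseudocount, with 5.13 at a pseudocount of 0.1 and 2.41 at 1. Zeros in this table can be failed estimates, since Eno1, a glycolytic gene of every cell, is also listed at 0 in 4 libraries. Apln was called with every one of the 6 libraries left out in turn.

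Aplnr, the G protein-coupled receptor of apelin (chromosome 2, 85136225 to 85139923), was listed at 0 in the 3 controls and at 0.475, 0.132 and 0 FPKM in knockout livers. Knockout 3 was listed at 0 like the controls, so the groups overlapped. The level was too low for the test. The other ligand of this receptor, Apela, was listed at 0 in every library.

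Esm1, the tip cell proteoglycan endocan (chromosome 13, 113209659 to 113218098), varied widely among the controls. It measured 0.436, 1.81 and 5.23 FPKM in controls 1, 2 and 3, a 12.0-fold range, and 0.627, 0.466 and 0.709 FPKM in knockout livers. Control 1 lay below all knockout libraries and controls 2 and 3 above them. The log2 fold change of -1.08 ± 0.56 did not pass (adjusted p = 0.184, 95% interval -2.33 to 0.17). Esm1 passed without control 1 (-1.73, adjusted p = 0.0227), and without control 3 its control mean went from 2.49 to 1.12 FPKM.

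**Figure D1:**
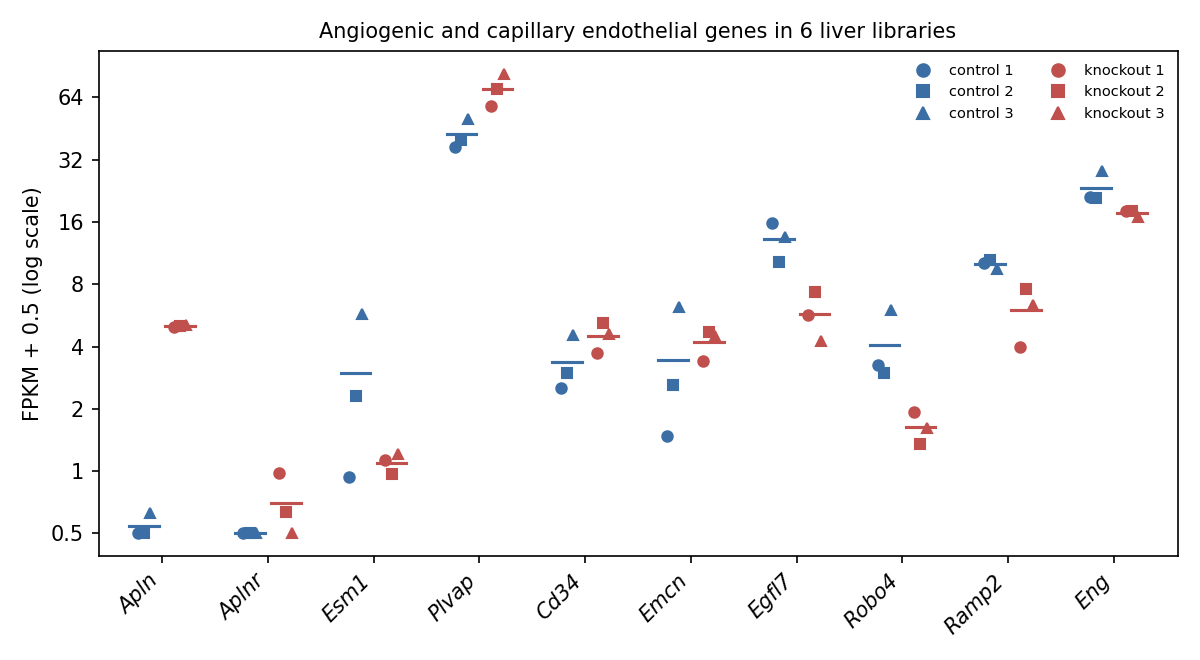
FPKM plus 0.5 on a log scale for each of the 10 genes, with 1 symbol per library, controls in blue and knockouts in red, and a bar at the mean of each group's FPKM. Apln is near 0 in the controls and at 4.46 to 4.60 FPKM in knockouts, Plvap is the most abundant gene in every library, and the 3 controls of Esm1 and Emcn lie far apart.

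Plvap encodes the protein of the diaphragms that span fenestrae, caveolae and transendothelial channels. It lies on chromosome 8 (71497765 to 71511752, minus strand). It stood at 36.3, 39.3 and 49.9 FPKM in the controls against 57.5, 69.7 and 82.5 FPKM in the knockouts. Every knockout library was above every control library. Its log2 fold change was 0.73 ± 0.18 (adjusted p = 0.0145), and this call was lost without control 1 (0.64, adjusted p = 0.060) and without control 2 (0.69, adjusted p = 0.0594). As FPKM is per length, levels of different genes can be compared: Plvap made up 41.2% to 44.5% of the summed FPKM of the 10 genes in controls and 59.4% to 67.0% in knockouts.

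Cd34, a sialomucin of capillary endothelium and of blood progenitors, lies on chromosome 1 (194938819 to 194961279). It had 2.02, 2.48 and 4.06 FPKM across the controls and 3.22, 4.70 and 4.11 FPKM across the knockouts. Control 3 was within the knockout range. The log2 fold change of 0.46 ± 0.27 did not pass (adjusted p = 0.236, 95% interval -0.14 to 1.06).

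Emcn encodes endomucin, the other sialomucin, and lies on chromosome 3 (137341067 to 137432185). It read 0.980, 2.098 and 5.74 FPKM in the untreated livers and 2.91, 4.19 and 4.02 FPKM after tamoxifen. Controls 1 and 2 were below the knockout range and control 3 above it. The log2 fold change was 0.53 ± 0.45 (adjusted p = 0.420). Without control 3, whose removal took the control mean from 2.94 to 1.54 FPKM, Emcn was called higher (1.09, adjusted p = 0.0361), and without control 1 the difference was 0.05.

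Along the first principal component of all tested genes control 3 lay closest to the knockouts, at -34.1 against -49.9 and -50.7 for the other controls. It had the highest control level of Apln, Esm1, Plvap, Cd34, Emcn, Robo4 and Eng. Its mean log2 level of 26 general endothelial genes was 0.30 above the control mean, against -0.10 and -0.20 for controls 1 and 2. Without control 3, 3 of the 9 tested genes were called higher and 2 lower, where 1644 of all tested genes were called higher and 1497 lower.

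Egfl7 encodes a secreted factor that endothelial cells lay down in the matrix around them, and it hosts the endothelial microRNA miR-126. Egfl7 spans chromosome 2, 26580014 to 26593120 on the plus strand, and the mature miR-126a-3p maps inside it at chr2:26591402-26591423 (GRCm38). Its sequence is shown with the seed, bases 2 to 8, in capitals because Egfl7 is the host gene that fell.

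miR-126a-3p: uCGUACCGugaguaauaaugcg

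The table lists the Mir126a row at 0 in all 6 libraries, and the mature form was not measured by these libraries. Egfl7 itself stood at 15.3, 9.71 and 12.99 FPKM in the controls against 5.17, 6.81 and 3.76 FPKM in the knockouts. All knockout libraries were below all controls. Its log2 fold change was -1.21 ± 0.24 (adjusted p = 0.00616), and it was called under all 17 alternative settings, from -1.40 to -1.01 with 1 library left out.

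Robo4, the endothelial member of the roundabout guidance receptors (chromosome 9, 37401897 to 37415115), had the largest fall among those of the 10 genes that passed the test. It had 2.75, 2.49 and 5.48 FPKM across the controls and 1.43, 0.852 and 1.12 FPKM across the knockouts. The groups did not overlap, although control 3 lay well above the other controls. Its log2 fold change was -1.26 ± 0.31 (adjusted p = 0.0154), and it was called in all 17 alternatives, with its smallest change, -0.95, when control 3 was left out.

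Ramp2 encodes the accessory protein that turns the receptor CALCRL into an adrenomedullin receptor (chromosome 11, 101246028 to 101259546). It read 9.63, 10.02 and 8.95 FPKM in the untreated livers and 3.49, 7.09 and 5.89 FPKM after tamoxifen. The controls were tightly grouped, the knockouts spread 2.03-fold, and all of the knockouts were lower. The log2 fold change of -0.79 ± 0.24 passed narrowly (adjusted p = 0.0367). The call was lost without any 1 library other than knockout 2 (adjusted p of 0.0564 to 0.109), and without knockout 1 the change was -0.53.

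Eng encodes endoglin, the co-receptor of BMP9 and BMP10 on endothelium (chromosome 2, 32646595 to 32682669). It stood at 20.6, 20.3 and 27.8 FPKM in the controls against 17.6, 17.6 and 16.4 FPKM in the knockouts. Every knockout library was below every control, but the log2 fold change of -0.39 ± 0.16 did not pass (adjusted p = 0.105, 95% interval -0.75 to -0.03). Among the 9 tested genes the groups did not overlap for 2 that were higher and 4 that were lower in knockouts, where 22.4% and 21.1% of all tested genes did so (43.5% in either direction). The exact two-sided permutation p of each of these 6 genes was 0.1, the smallest that 3 against 3 libraries can give.

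By mean level in controls the order was Plvap, Eng, Egfl7, Ramp2, Robo4, Emcn, Cd34, Esm1, Apln and Aplnr. Neighbours whose library values overlapped were Egfl7 with Ramp2, then Robo4, Emcn, Cd34 and Esm1 in turn, and Apln with Aplnr. In knockout livers the order was Plvap, Eng, Ramp2, Egfl7, Apln, Cd34, Emcn, Robo4, Esm1 and Aplnr. There the values of Ramp2, Egfl7, Apln, Cd34 and Emcn overlapped from each to the next, as did those of Esm1 and Aplnr, and Apln had moved from the ninth place to the fifth.

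The changes were set against other endothelial transcripts of the same library. For each library the mean log2(FPKM + 0.5) of the 26 tested general endothelial genes, none of them among the 10, was subtracted from each gene's value. That mean was 0.68 to 0.79 below the control mean in the knockout libraries, so each gene's relative value moves up by the same amount. The 26 genes did not move together: their log2 fold changes ran from -3.05 (Ptprb) to 1.47 (Cd93), and Pecam1 (-0.21) and Cdh5 (0.28) were not called. The relative values therefore depend on which genes are in the reference, and other references were not tested. Relative to these genes Apln was higher by 3.95 ± 0.29, Plvap by 1.46 ± 0.23, Emcn by 1.26 ± 0.36 and Cd34 by 1.19 ± 0.25 (adjusted p = 1.16e-06, 3.01e-04, 0.0121 and 0.00227). The filter on low values let Apln in through the knockouts alone, so its test adds little here too. The relative change of Apln ran from 3.02 to 6.03 over the alternatives with all 6 libraries. On this scale Emcn was at -1.48 to 0.19 in control and 0.41 to 0.76 in knockout livers, whereas Emcn and Cd34 overlapped between the groups as deposited. How many of all tested genes separate on this scale was not counted. Egfl7 (-0.48 ± 0.27), Robo4 (-0.53 ± 0.29) and Ramp2 (-0.06 ± 0.28, above 0 in 3 of 17 alternatives) did not pass. Nor did Esm1 (-0.35 ± 0.47, above 0 in 2 of 17 alternatives) or Eng, whose relative value of 0.34 ± 0.22 (adjusted p = 0.189) has the opposite sign to its change as deposited. Of the 9 genes 4 were called higher and 0 lower (limma; 0 lower at an unadjusted p under 0.05 too, and Egfl7 alone with library weights, under which Eng was also called higher, 0.37, adjusted p = 0.0347). Of all tested genes 51.4% were called higher on this scale, 1.81% lower and 53.2% in either direction, so 4 of 9 is near the share of all genes.

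**Figure D2:**
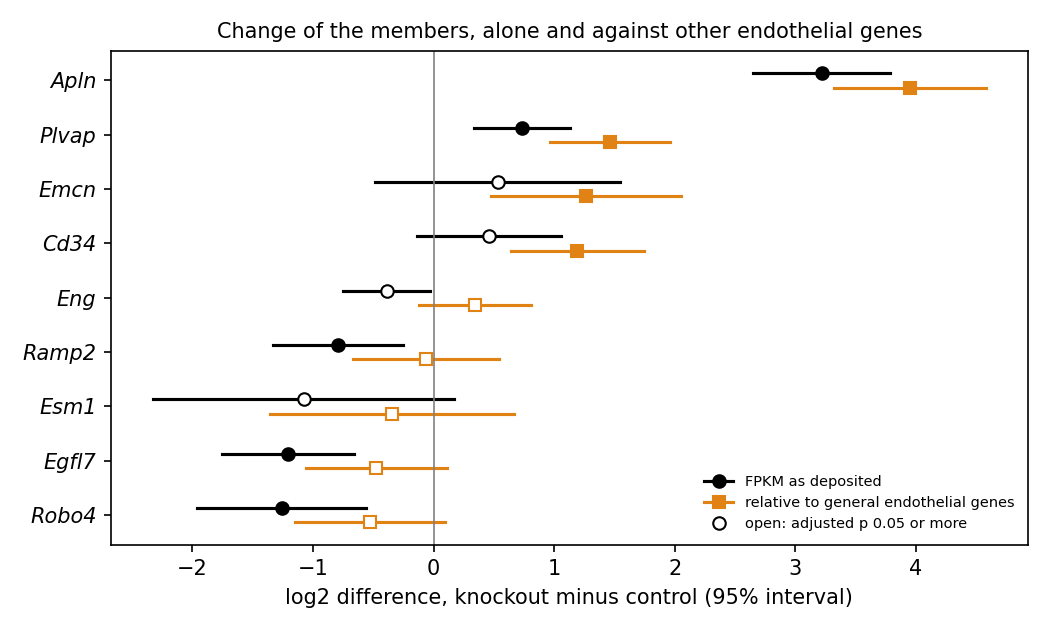
Log2 difference of knockout minus control for the 9 tested genes with 95% intervals, as deposited (black circles) and relative to the mean of 26 general endothelial genes (orange squares), with open symbols at an adjusted p of 0.05 or more. Cd34 and Emcn have filled symbols on the relative scale alone, and Egfl7, Robo4 and Ramp2 on the deposited scale alone.

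Other endothelial genes differed widely in direction. The general endothelial list had 3 of 26 tested genes higher and 14 lower, with a median log2 fold change of -1.01 against a median of -0.0007 over all tested genes. Defining genes of the lineage did not move together. Cdh5, the endothelial cadherin gene, was at 10.3 to 23.1 FPKM in the controls and 16.3 to 18.8 in knockout livers (0.28 ± 0.26, adjusted p = 0.469). Without control 3, Cdh5 was called higher (0.61, adjusted p = 0.0349). Pecam1, an adhesion molecule of all endothelium, also did not pass (-0.21 ± 0.20, adjusted p = 0.484). Lower were the lineage factors Erg (32.2% of its control mean, -1.25 ± 0.25, adjusted p = 0.00565) and Sox18 (-1.77 ± 0.26) and the junction genes Cldn5 (-1.80 ± 0.33) and Esam (-1.30 ± 0.17). Fli1, Cd93 and Lmo2 were the 3 higher genes (1.26, 1.47 and 1.07). These 7 were named after their values were seen. Blood cells also express Fli1, Cd93 and Lmo2, and which cells made these transcripts was not tested. The angiopoietin receptor Tek fell from 3.06 ± 1.06 to 0.557 ± 0.229 FPKM (SD, n = 3, limma adjusted p = 0.00314). Tie1, an orphan relative of that receptor, had a log2 fold change of -0.81 ± 0.26 (adjusted p = 0.0463), a call lost in 6 of 17 alternatives. Ptprb, a phosphatase that restrains the product of Tek, had a log2 fold change of -3.05 ± 0.29 (adjusted p = 2.03e-04). Of 20 tested sinusoidal genes 11 were lower and 1 higher (median -1.16), while the scavenger receptor Stab2 had 6.08 to 12.9 FPKM across the controls and 9.74 to 11.2 FPKM across the knockouts (0.32 ± 0.26, adjusted p = 0.401). Without control 3, Stab2 was called higher (0.64, adjusted p = 0.0314). Lyve1, the hyaluronan receptor of sinusoids and lymphatics, had a log2 fold change of -1.16 ± 0.30 (adjusted p = 0.0197), lost without control 2 or control 3. Dnase1l3, a secreted nuclease of sinusoids, fell from 23.1 ± 6.31 to 0.704 ± 0.115 FPKM (SD, n = 3, limma adjusted p = 9.79e-06). Clec4g, a lectin of sinusoidal endothelium, was listed at 44.4 to 63.8 FPKM in the controls and at 0.381, 0 and 0 in knockout livers. Its zeros can be failed estimates, as said for Apln, and so can those of Dll4 and Gpihbp1 below.

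The list of other tip and angiogenic genes was mixed. Of 25 genes 23 were tested, 13 were higher and 4 lower, and the median log2 fold change was 0.93. The 13 included the matrix genes Col4a1, Col4a2, Lamb1 and Nid2 as well as Rgs5 and Cd93, named here after their values were seen. Which cells made these transcripts was not tested, so the median is not one of endothelial cells alone. Cxcr4, a chemokine receptor of tip cells and of leukocytes, had a log2 fold change of 2.84 ± 0.25 (adjusted p = 1.28e-04). Its level was 0.769, 1.33 and 1.66 FPKM in the controls and 9.83, 13.96 and 11.7 FPKM in the knockouts, with no overlap. Vim, the intermediate filament gene of mesenchymal cells and leukocytes as well, had a log2 fold change of 2.31 ± 0.32 (adjusted p = 0.001004). The 4 lower genes were Kdr, Flt4, Dll4 and Igfbp3, the last pair named after their values were seen. Dll4, the Notch ligand of tip cells, was listed at 1.67, 1.86 and 3.55 FPKM in the controls and at 0, 0.137 and 0.278 FPKM in the knockouts (-2.13 ± 0.34, adjusted p = 0.00213). Kdr, the main VEGF receptor of blood vessels, read 11.1, 7.69 and 18.1 FPKM in the untreated livers and 1.30, 1.11 and 1.73 FPKM after tamoxifen (log2 fold change -2.70 ± 0.30, adjusted p = 3.76e-04). Flt4, which sinusoids share with lymphatic vessels, had a log2 fold change of -2.72 ± 0.26 (adjusted p = 2.03e-04). Vegfa, the ligand of the KDR receptor, rose from 24.0, 20.3 and 11.2 FPKM to 53.6, 75.5 and 36.3 FPKM (1.55 ± 0.32, adjusted p = 0.00642).

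Most capillary and fenestral genes other than the 10 were not called. Of 16 tested, 2 were higher, 4 lower and 10 not called, with a median log2 fold change of -0.36. The shares of all tested genes were 14.1% higher and 13% lower, so these counts give the list no clear direction. Gpihbp1, which anchors lipoprotein lipase in capillaries, was listed at 22.9, 21.1 and 33.2 FPKM in the controls and 1.96, 0 and 1.47 FPKM in knockout livers. The water channel Aqp1 fell from 60.2 ± 11.9 to 8.32 ± 3.92 FPKM (SD, n = 3, limma adjusted p = 4.83e-04). Cd300lg, a capillary receptor that binds lymphocytes, had a log2 fold change of -2.31 ± 0.23 and the tetraspanin Tspan7 of -1.31 ± 0.20. Higher were Sparcl1, a matrix protein gene also made by mural cells (1.16 ± 0.25, adjusted p = 0.00825), and the endothelin receptor Ednrb (0.93 ± 0.22, adjusted p = 0.0132).

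The signalling partners of the 10 genes included 29 tested genes, of which 11 were higher and 0 lower (limma; 1 lower at an unadjusted p under 0.05), with a median log2 fold change of 0.73. The ligands of the receptor that RAMP2 helps to form were among them. Adm, which encodes adrenomedullin, rose from 2.79, 2.17 and 3.86 FPKM in the controls to 17.1, 28.7 and 17.01 FPKM in knockout livers (2.62 ± 0.26, adjusted p = 2.25e-04). Its relative Adm2 was listed at 0 in all controls and at 3.43, 8.57 and 4.35 FPKM in knockouts, and it passed the filter on low values through the knockouts alone. The receptor Calcrl stood at 4.05, 4.49 and 7.04 FPKM in the controls against 3.17, 3.15 and 2.30 FPKM in the knockouts, without overlap, and did not pass (-0.73 ± 0.25, adjusted p = 0.0542). Ramp1, whose protein turns the same receptor towards the peptide CGRP, had a log2 fold change of 0.86 ± 0.28 (adjusted p = 0.0483), a call lost in 11 of 17 alternatives. Ramp3, the third accessory protein, was listed at 0, 0.417 and 0 FPKM in the controls and 0.772, 0.858 and 0.436 FPKM in the knockouts, too low for the test. Per library the ratio of Ramp1 to Ramp2 was 0.146 to 0.257 in control and 0.667 to 0.875 in knockout livers.

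Itgb2, a leukocyte integrin gene on the partner list, also rose (1.99 ± 0.26, adjusted p = 8.40e-04). So did Tgfb1 on the same list (1.01 ± 0.31, adjusted p = 0.0373), named after its value was seen. Its call was lost in 8 of 17 alternatives.

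For the BMP9 branch, in which endoglin serves the kinase receptor ALK1 (Acvrl1), no partner passed. Gdf2, which encodes BMP9, had a mean of 11.02 ± 0.0244 FPKM in the controls (SD, n = 3) and single values of 12.2, 11.5 and 9.08 FPKM in the knockouts. Bmp10 had a log2 fold change of 0.84 ± 0.33 (adjusted p = 0.0892) and Bmpr2, the type II receptor, 0.26 ± 0.24 (adjusted p = 0.456). Acvrl1 read 0.866, 1.80 and 2.51 FPKM in the untreated livers and 4.23, 4.23 and 2.55 FPKM after tamoxifen. Its groups just failed to overlap, and its log2 fold change of 0.95 ± 0.33 did not pass (adjusted p = 0.0583), but did under 3 of 17 alternatives, among them without control 3 and without knockout 3. Bmp10 passed under 2, of which 1 was without control 3. Targets and inhibitors of this branch, Id1, Id3, Smad6 and Smad7, were not called either, with log2 fold changes of 0.14, -0.25, -0.11 and 0.34.

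Around Robo4, the netrin receptor Unc5b, which ROBO4 binds on endothelium, rose from 0.517, 0.536 and 0.476 FPKM to 3.11, 4.26 and 5.05 FPKM (2.18 ± 0.25, adjusted p = 4.52e-04). Robo1, the broadly expressed roundabout receptor, rose from 2.27, 1.95 and 1.57 FPKM to 5.70, 7.95 and 4.81 FPKM (1.44 ± 0.24, adjusted p = 0.00247). Thus the ratio of Robo1 to Robo4 was 0.287 to 0.828 in control and 4.0 to 9.33 in knockout livers, and that of Unc5b to Robo4 0.0869 to 0.215 and 2.18 to 4.99. The ligand genes Slit2 and Slit3 stayed under 1 FPKM in every library and were not tested. Ratios were compared for 5 pairs chosen after their values were seen, the pairs above and Acvrl1 to Eng (0.0420 to 0.0902 in control, 0.156 to 0.240 in knockout livers) and Plvap to Eng (1.76 to 1.93 and 3.27 to 5.04). Each had an exact two-sided permutation p of 0.1, the smallest the design can give, and 0.1 after Benjamini-Hochberg adjustment over the 5.

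**Figure D3:**
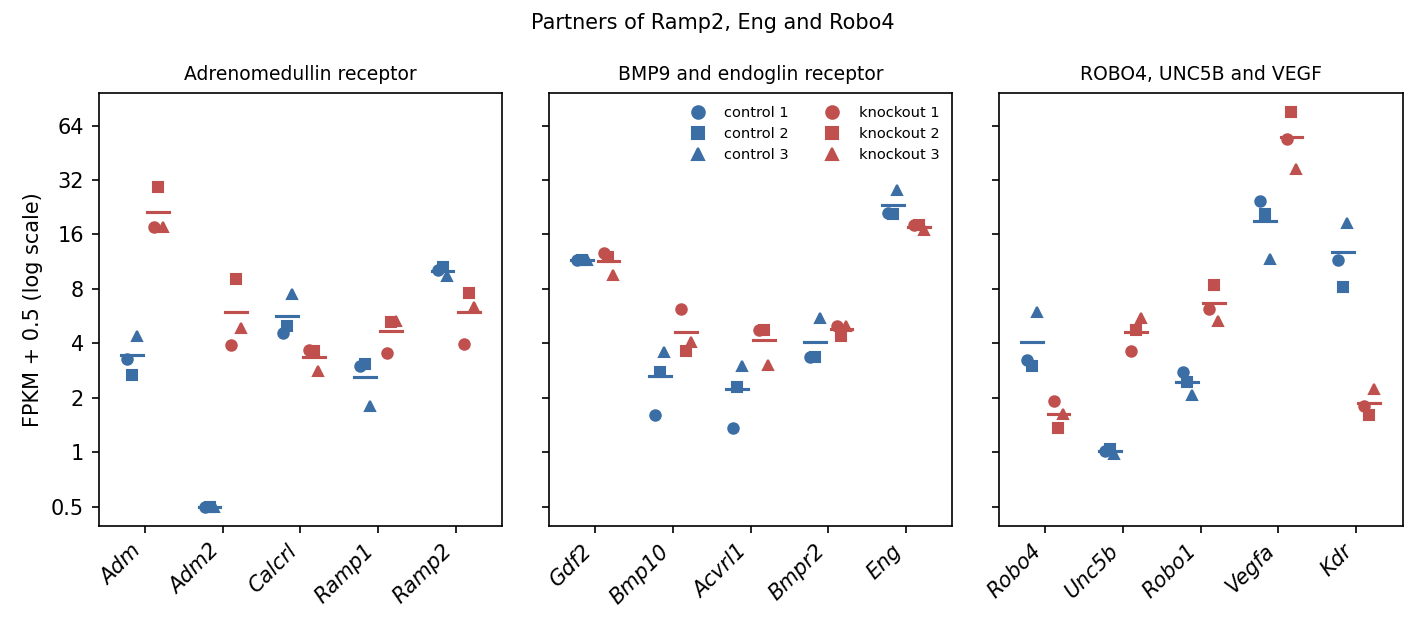
FPKM plus 0.5 on a log scale for genes of the adrenomedullin receptor, the BMP9 and endoglin receptor, and ROBO4 with UNC5B and VEGF, with 1 symbol per library and a bar at each group's mean. Adm, Adm2, Unc5b, Robo1 and Vegfa are higher in all knockout libraries and Ramp2, Robo4 and Kdr lower, while Gdf2 overlaps.

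Markers of other cells moved as well, and their part in the changes of the 10 genes was not tested. Monocyte and neutrophil genes were called higher in 15 of 15 cases, with a summed level of 38.95 to 84.2 FPKM in the controls and 1816 to 1929 FPKM in knockout livers. Macrophage and Kupffer cell genes were higher in 11 of 15, with sums of 906 to 1615 and 2104 to 2428 FPKM. Stellate cell and fibroblast genes were higher in 13 of 23 and lower in 1, with sums of 266 to 317 and 482 to 646 FPKM. Platelet genes were higher in 5 of 7, with sums of 4.18 to 14.7 and 25.3 to 35.7 FPKM. Of these, Gp9, Tubb1 and Nrgn (control means of 0.220 to 0.362 FPKM) also passed the filter through the knockouts alone. So did Gpnmb on the macrophage list and Lox and Pi16 on the fibroblast list. The list of blood progenitors and mast cells had 3 tested genes of 8, of which 1 was lower and 0 higher (limma, also 0 higher at an unadjusted p under 0.05, with sums of 9.11 to 14.3 and 6.89 to 8.80 FPKM), and the mast cell protease Mcpt4 was listed at 0 throughout. The lower gene was Hlf, at 7.46 to 11.7 FPKM in the controls and 5.42 to 5.81 FPKM in the knockouts. Hlf made up most of these sums, and Kit and Meis1 were not called, so the list does not show a fall of progenitor genes. Lymphatic genes had 2 lower of 5 tested, with Ccl21a listed at 0 throughout and sums of 34.6 to 54.4 and 21.9 to 31.8 FPKM. The 2 lower were Lyve1 and Flt4, which are also on the sinusoidal list and were counted in it, so this is no separate lymphatic change. Hepatocyte genes, which define the labelled tissue, were present, and 5 of 9 were lower and 0 higher (limma, also 0 higher at an unadjusted p under 0.05), with sums of 14048 to 19421 and 8639 to 11035 FPKM. Ttr, the transthyretin gene, was at 4945 to 7264 FPKM in the controls and 2410 to 2627 FPKM in the knockouts. Map3k7 stood at 8.50 to 9.14 FPKM in the controls against 7.35 to 9.31 FPKM in the knockouts, and as other liver cells express it, this does not check the deletion.

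The genes outside the 10 whose log2 level followed a given gene most closely over the 6 libraries were found by Pearson correlation, as a description in which the difference between the groups takes a large part. For Apln they were the chemokine receptor gene Ccr1, the actin regulator Eps8 and the raft protein Rftn1 (r of 0.9998, 0.9993 and 0.9990). Ccr1 had 0.158, 0.164 and 0.292 FPKM across the controls and 4.998, 4.90 and 4.81 FPKM across the knockouts. For Plvap they were the flow-responsive factor Klf2, the TNF family ligand Tnfsf12 and the kinase Limk1 (0.9995, 0.9991 and 0.9970). Klf2 read 5.89, 6.38 and 8.98 FPKM in the untreated livers and 10.6, 13.4 and 16.4 FPKM after tamoxifen. It was called higher (0.88 ± 0.22, adjusted p = 0.0160), but not without control 1, control 2 or knockout 3. For Cd34 they were Hiat1, Swap70 and Lrrc75a (0.9948, 0.9945 and 0.9867), and for Emcn the myeloid lectin Clec4n, Rhou and Neurl2 (0.9955, 0.9818 and 0.9763). Clec4n stood at 5.26, 9.54 and 20.1 FPKM in the controls against 12.02, 14.8 and 14.1 FPKM in the knockouts, with the same high control 3 as Emcn. It was not called (0.41, adjusted p = 0.463), but was without control 3 (0.89, adjusted p = 0.0362).

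**Figure D4:**
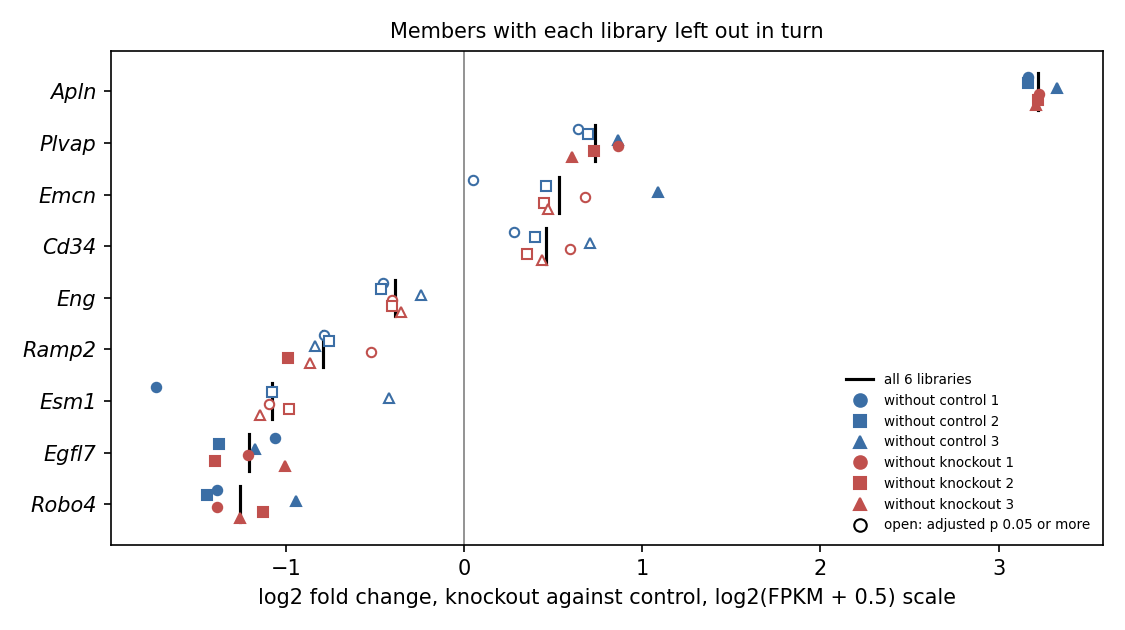
Log2 fold change of the 9 tested genes with all 6 libraries (black line) and with each library left out in turn (blue for a control, red for a knockout left out), with open symbols at an adjusted p of 0.05 or more. Apln, Egfl7 and Robo4 are filled throughout, Ramp2 is open without any 1 library but knockout 2, and Esm1 is filled without control 1 alone and Emcn without control 3 alone.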

How the data were processed

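Values are FPKM per gene as deposited, made by the authors on genome build mm9 with TopHat2 2.1.0, Cuffnorm 2.2.1, Cuffdiff 2.2.1 and Trimmomatic 0.33, per the submitters' processing notes. The sources used here do not name the gene annotation. All values of a library depend on the scaling used. Rescaling by median of ratios gave 1671 genes higher and 1521 lower, against 1669 and 1534 as deposited. Row names were used as symbols. No read totals are given. From the spacing of low values, relative depth was 0.918 to 1.09 with control 1 set to 1, although 54.8% to 72.5% of them fell on whole steps. Alb, listed at 0 in all controls and from 55705 to 73306 FPKM in knockouts, was left out, its zeros being treated as failed estimates.

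Two-sided limma tests (version 3.58.1, R 4.3.3, empirical Bayes with trend) compared the groups across all genes, and the code was tested on simulated data. The replicates are labelled only as separate samples, so p-values measure the spread between them. Exact permutation tests used the same log2 values. The 10 genes and all lists were chosen with earlier results of these data known. Lists can share genes, as with Kdr, Flt4, Lyve1, Kit, Adm, Unc5b and Cd93, so their counts are not independent. List counts also include genes that passed the filter on low values through a single group, and the tests of those genes add little. Examples are Pdgfb on the tip list, through the knockouts, and Dll4, Ptprb and Clec4g, through the controls. Other genes were named by a rule that takes the partners of the 10 genes, the called list genes of largest change and the closest correlates. Id1, Id3, Smad6, Smad7 and others marked in the text were added after their values were seen, and a few marker genes the rule takes are covered by their list's counts alone or are not reported here. Places and sequences are from GENCODE and RefSeq (GRCm38), a later build than the authors'. Figures were drawn with matplotlib 3.10.9.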

Additional observations from a re-analysis of the deposited data

How the results depend on the processing

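Of 17 alternatives (other pseudocounts, filters, scalings and variance models, library weights, a replicate block, Alb retained, and each library left out in turn), Apln, Egfl7 and Robo4 were called in all, Plvap in 15 and Ramp2 in 10. For Apln this adds little, since it passed the filter on low values through the knockouts alone. With all 6 libraries the 5 calls among the 10 genes stayed the same under 9 of 11 settings, and Ramp2 alone was lost with no filter on low values (adjusted p = 0.0605) and without a variance trend (adjusted p = 0.0561). With 1 library left out, 1 to 3 of the 9 tested genes were called higher and 2 to 3 lower. All genes called higher then numbered 1186 to 1644. Sinusoidal genes called higher numbered 0 to 2, and all genes called lower 943 to 1397 without a single library other than control 3, and 1497 without control 3. Library weights put Egfl7 lower relative to general endothelial genes, making 1 lower in place of 0, and also called Eng, making 5 higher in place of 4. With no filter Aplnr made 5 higher (1.15, adjusted p = 0.011). Relative values that changed sign were those of Esm1 (0.66 with library weights and 0.16 without control 3) and Ramp2 (0.054 at a pseudocount of 0.1, 0.07 without control 2 and 0.18 without knockout 1; with 1 library left out Esm1 ran from -0.95 to 0.16 and Ramp2 from -0.26 to 0.18), and the fold change of Gdf2 was 0.10 without knockout 3. Among the other named genes, the change of Clec4n ranged from -0.03 to 0.89 and that of Rhou from -0.04 to 0.13. At the settings where these signs changed no value passed the test, and the cause was not tested.

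Rescaling each library to the same total took the median change (log2) over the tested genes from -0.0007 to -0.11, and the calls from 1669 higher and 1534 lower (52.1% higher) to 1356 and 2081 (39.5% higher). The 5 calls among the 10 genes and their directions were the same under it. With the replicate number as a block, 1575 genes were higher and 1385 lower, and the same 5 of the 10 genes were called. Deviations of same-numbered libraries did not correlate (r of -0.01, -0.0001 and 0.0015), and no library correlated best with its own number in the other group, so the numbers were taken as names only. FPKM without counts give no counting interval, so for Apln, Aplnr, Adm2, Clec4g, Gpihbp1 and Dll4 the level below which a gene reads 0 is not known.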
